A study of Mus musculus with 3 samples.

Results

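The heat shock proteins and their J-domain co-chaperones were followed through a comparison of mouse aortas labelled Plk1(+/-) with wild-type aortas. Members were all non-control probes whose gene name, in the files or as the current symbol of the probe's accession, starts with Hspa, Hspb, Hspd, Hspe, Hsph, Hsp90, Dnaja, Dnajb or Dnajc. The rule took 142 of 41174 probes, which stand for 72 of 20044 named genes, and used no measured value. Older names were resolved on the way, so that the probe named Hsp110 in the files is Hsph1, Stch is Hspa13 and Hspa9a is Hspa9. The prefix also took Hspbp1 and Hspbap1, which encode binding partners of heat shock proteins, and Hspb11, which encodes a protein of ciliary transport. A gene named Hspa1b, a near-identical copy of Hspa1a, has no probe under this rule, so the probes of Hspa1a may read both. Of the members, 135 probes of 71 genes were kept, because on 2 or more arrays their signal in at least 1 dye was well above background. The 7 probes left out were the single probe of Dnajb7, 1 probe each of Dnajb13, Hspb11, Dnajb4 and Dnajc1, and a pair of probes of Hspa13.

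Total RNA was hybridised to 3 two-colour arrays on 1 slide. On every array Cy5 marked 1 aorta labelled Plk1(+/-), and Cy3 marked 1 common pool made of 3 wild-type aortas. All animals were 3 to 5 months old, of strain 129/CD1, and Plk1 encodes polo-like kinase 1, a kinase of mitosis. With no array dyed the other way round, dye and genotype cannot be told apart, and the pool is 1 control sample whose own animal-to-animal spread is left out of every test. The labels do not say how the Plk1 allele was interrupted, and their growth protocol describes embryonic stem cells although the tissue is given as aorta. Values below are log2 ratios of the single aorta over the pool in samples 1, 2 and 3, in that order, so values under 0 mean less signal than in the pool. The small number of arrays limits the precision.

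Heat shock proteins are chaperones that bind unfolded or partly folded proteins. The HSP70 proteins (Hspa genes) bind and release short stretches of their clients in a cycle driven by ATP, which J-domain proteins (Dnaja, Dnajb and Dnajc genes) start and nucleotide exchange factors end. HSP90 proteins act later on near-native clients such as kinases and steroid receptors, the small heat shock proteins (Hspb genes) hold aggregating proteins without using ATP, and HSP60 with HSP10 (Hspd1 and Hspe1) form the folding chamber of mitochondria. Several of these genes are switched on by heat shock factor 1, which binds repeated GAA units, the heat shock element. In the vessel wall the small heat shock proteins are abundant in muscle cells, where they associate with actin and intermediate filaments.

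Probe signal was well above background for at least 66.0% of spots in Cy3 and at least 77.0% in Cy5 on each array. Plk1 itself read -0.06, -0.08 and 0.42, a mean of 0.10 ± 0.28 (SD, n = 3; limma adjusted p = 0.705), so a lower level was not detected, and a probe outside the interrupted part would check nothing. All 10 smooth muscle and all 8 endothelial markers were well above background in the pool. Over 32486 kept probes, limma called 215 at an adjusted p under 0.05, which is 0.662%. Of these, 10 were higher and 205 lower, and 184 of the lower ones were on probes with saturated spots. Without saturated probes limma called 0, with 5697 at an unadjusted p under 0.05. In bulk RNA, fewer cells of a type and less RNA per cell cannot be told apart.

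No chaperone probe passed that test. Among the 135 kept probes, limma called 0 at an adjusted p under 0.05, and the lowest adjusted p was 0.0653, on a saturated probe of Hspa9. At an unadjusted p under 0.05, 26 member probes were lower (19.3%, against 9.92% of all kept probes) and 6 were higher (4.44%, against 8.88%). That balance turned under median centring in place of loess: limma then called 58 member probes past the adjusted threshold, of which 49 lay above the pool and 9 below it, and the median member probe stood at 0.26. Over all 32486 kept probes that setting called 13590, with 9311 above the pool and 4279 below it. In all 3 samples, 40 member probes were lower (29.6%, against 19.6% of all) and 22 were higher (16.3%, against 25.3%). With 1 probe per gene, the brightest, 15 of 71 genes were lower at an unadjusted p under 0.05 (21.1%, against 10.0% of 22112 features) and 5 were higher (7.04%, against 9.59%). Among the lower ones, Hspa8, Hspa9, Hspd1, Dnajc15 and Hsp90aa1 were counted on probes with saturated Cy5 spots, where the aorta signal is only a lower bound. Without saturated probes, 27 of 129 member probes had an unadjusted p under 0.05 in either direction, against 5697 of 31890 kept probes. Some of the probes behind these counts share a transcript. The median member probe stood at -0.05, against 0.03 over all kept probes. On simulated ratios with the spread of these arrays the same test recovered 1 of 50 probes changed by 0.5 on the log2 scale and 32 of 50 changed by 1, so differences as small as most of those below would seldom be called.

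The small heat shock genes had the lowest class median. Their 8 genes had a median mean ratio of -0.43, with medians of -0.08, -0.36 and -0.89 in samples 1, 2 and 3. The 12 Hspa genes stood at -0.07 (0.01, -0.04 and -0.30 in the samples), and the 4 genes of Hsp90 with Hsph at -0.19 (0.17, -0.22 and -0.34). In those 3 classes the median was highest in sample 1 and lowest in sample 3. Without saturated probes the Hspa median was -0.006. That of 3 genes of Hsp90 with Hsph was then -0.19, with 0.16, -0.19 and -0.73 in the samples. The 2 genes of Hspd with Hspe had a median of -0.26 (-0.13, -0.34 and -0.29 in the samples), and of 0.10 without saturated probes. The J-domain classes lay close to 0, with -0.04 for 4 Dnaja genes, 0.03 for 11 Dnajb genes and -0.007 for 28 Dnajc genes. The median of the 8 Hspb genes was -0.21 without sample 3 and -0.63 without sample 1. Under median centring in place of loess, which moved the median of all kept probes from 0.03 to 0.18, the Hspb median was -0.09 and the other class medians were above 0, so the size or sign of a class median here depends on the scaling.

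**Figure D1:**
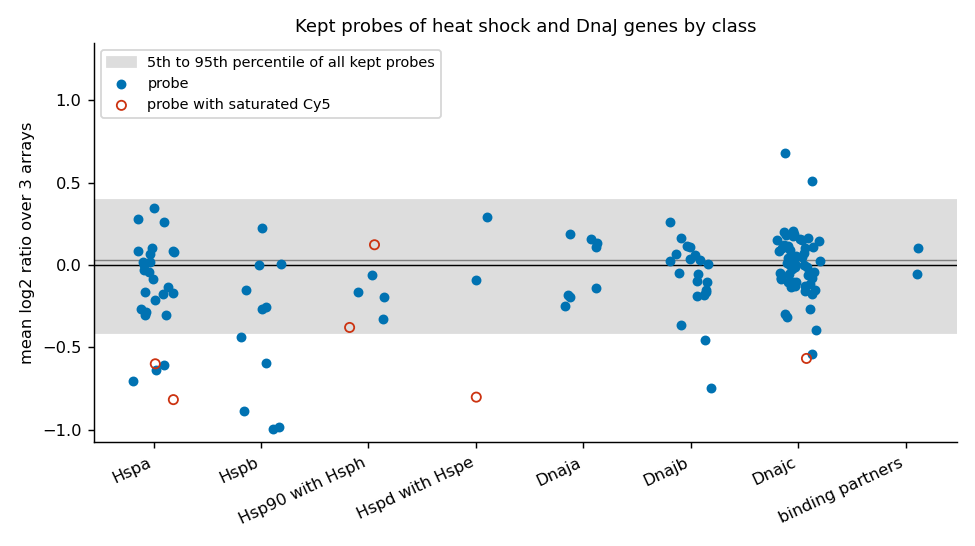
Mean log2 ratio of every kept probe over the 3 arrays (y axis) by gene class (x axis), with points spread sideways for legibility, open circles for probes with a saturated Cy5 spot, and a grey band from the 5th to the 95th percentile of all kept probes (-0.41 to 0.40). Several Hspa and Hspb probes lie below the band, while most Dnaja, Dnajb and Dnajc probes lie inside it.

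Several heat-inducible chaperones differed widely between the 3 aortas. Hsph1, the HSP110 protein that acts as a nucleotide exchange factor of HSP70, read 0.38, -0.19 and -1.17, with a mean of -0.32 ± 0.78 (SD, n = 3; limma adjusted p = 0.595). Its signal for the pool had an SD of 0.07 over the same arrays, and that for the single aortas an SD of 0.78. Sample 1 was above the pool and sample 3 far below it. Hspb1, the small heat shock protein HSP27, read 0.37, -0.01 and -0.81, in the same order, with an SD of 0.03 for the pool and 0.58 for the aortas. Hspa4l, another HSP110 relative, read 0.45, 0.15 and -0.55 on its brightest probe. On all 4 of its probes sample 1 was highest and sample 3 lowest.

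Most core genes of the cytosolic heat response were also lowest in sample 3. Hspa1a, the classical inducible HSP70, read -0.16, -0.77 and -0.98 on its brightest probe, a mean of -0.64 ± 0.42 (SD, n = 3), and -0.34, -0.77 and -1.01 on a neighbouring probe with a mean of -0.70 ± 0.34. The limma adjusted p of the brightest probe was 0.204. All 4 probes of Hspa1a lay below the pool in every sample, the one with the smallest difference at a mean of -0.21. Hspa8, the constitutive HSC70, has 1 probe saturated in Cy5 on all 3 arrays, for which no fold is given, and 1 unsaturated probe at 0.14, 0.01 and -0.67. Hsp90ab1, the constitutive cytosolic HSP90, read 0.16, -0.001 and -0.73 on its unsaturated probe. Dnaja1, a J protein that loads clients onto HSC70, read 0.16, -0.07 and -0.64 on its brightest probe, and its other probes read 0.39, 0.31 and -0.30 and 0.38, 0.31 and -0.22. Only sample 3 lay below the pool on every one of the unsaturated probes of Hspa8 and Dnaja1. Hspb8, a small heat shock protein of the BAG3 complex, read -0.02, -0.08 and -0.70. Dnajb1, the HSP40 that drives disaggregation with HSP70, read -0.25, 0.15 and -0.38 on 1 probe and 0.01, -0.08 and -0.37 on the other. Sample 3 was lowest on both probes of Dnajb1, while sample 2 was highest on the first. Hspe1, the mitochondrial HSP10, was lowest in sample 1 instead, at 0.24, 0.28 and 0.35 (mean 0.29 ± 0.06; limma unadjusted p = 0.0100, adjusted p = 0.182). Under median centring the mean of Hspa1a was -0.19, and those of Hsph1, Hspb1, Hspb8, Dnaja1 and Dnajb1 turned to 0.15, 0.34, 0.20, 0.31 and 0.33, so for these genes the difference from the pool depends on the scaling.

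Over the list of heat shock factor 1 responsive members, 19 of 21 unsaturated probes (90.5%) had their lowest value in sample 3 and 17 (81.0%) their highest in sample 1. Over 31881 unsaturated kept probes, 31.9% were lowest in sample 3 and 39.9% highest in sample 1. With 1 probe per gene, 10 of 11 genes were lowest in sample 3 and 8 were highest in sample 1. This way of counting was chosen after the values were seen and carries no test, and the members of the list are not independent of each other. The count lowest in sample 3 was 19 or 20 of 21 under median centring, without background correction, with the scanner software's own log ratio and with the authors' series values. The pool, hybridised 3 times, had a median SD of 0.10 over the unsaturated member probes, against 0.18 for the aortas. Over all unsaturated kept probes these medians were 0.10 and 0.17, so this spread is not particular to the members. Some marker lists of other cell types had the same order: the median of 7 neuronal markers was 1.58, 0.73 and -0.36, and that of 9 unsaturated skeletal muscle markers -0.75, -0.95 and -2.74. Lymphocyte markers had the opposite order, with medians of 0.16, 1.61 and 2.22 over 10 genes, all well above background in the pool, and a summed normalized intensity of 5742 to 7369 for the pool and 6727, 23740 and 41992 for the samples. The median of cardiac muscle markers was highest in sample 2, although Actc1 and Ryr2 were lowest there. The median of unsaturated smooth muscle markers was lowest in sample 2, at -1.13 against -1.08 in sample 3. Of these markers, Smtn, Des, Synpo2 and Pln were lowest in sample 3. The summed normalized intensity of the neuronal markers, all 7 of them well above background in the pool, was 10539 to 11769 for the pool and 34764, 17601 and 8312 for the samples. The part of these cells in the order of the samples was not tested.

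**Figure D2:**
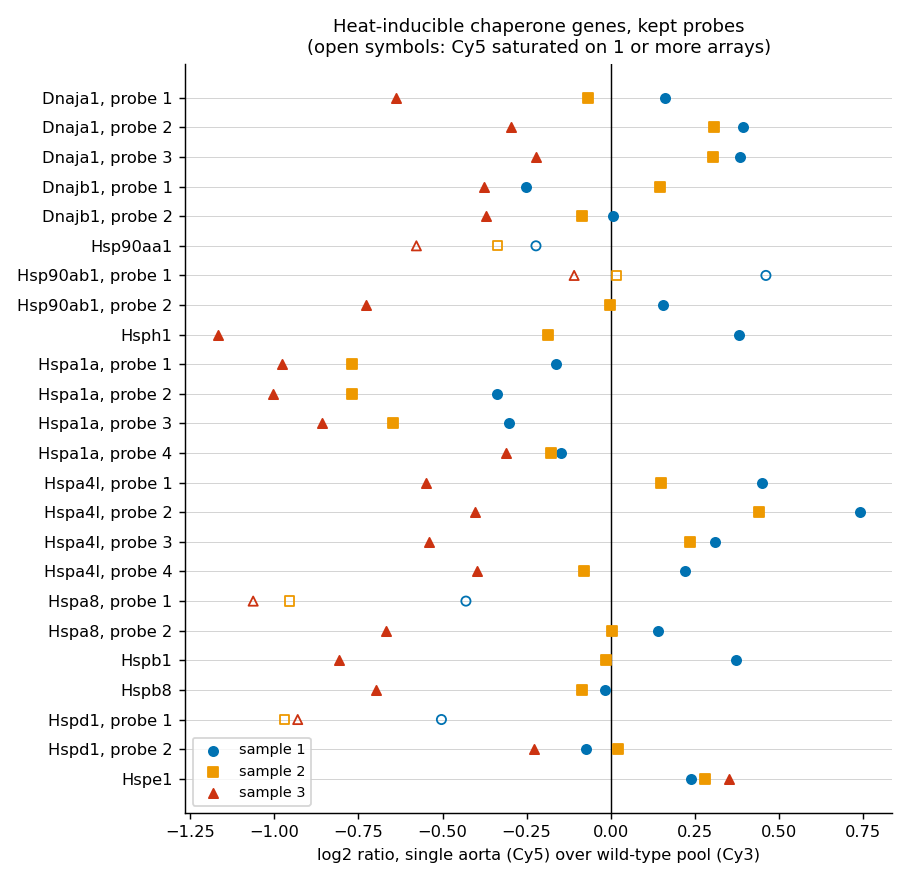
Log2 ratio of the single aorta over the wild-type pool (x axis) in each sample for the kept probes of heat-inducible chaperone genes (rows), without the probe of Hspb1 placed on another chromosome, with open symbols for probes saturated in Cy5. Sample 3 (triangles) is leftmost on nearly all unsaturated rows, for example at -1.17 for Hsph1, while Hspe1 has all samples between 0.24 and 0.35.

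Heat shock elements were searched in RefSeq promoter windows of assembly GRCm38.p6, from 250 bases before to 50 after each gene's start, which were at hand for 58 of the 72 members. A run of 3 units, GAANNTTCNNGAA or its reverse complement TTCNNGAANNTTC, was found for 4 members (6.90%) and for 0.662% of 27025 genes. These were Hspe1, Hspd1, Hsph1 and Dnajb6. A pair of units, GAANNTTC, reads the same on both strands and was found for 13 members (22.4%, against 9.04% of all genes), among them Hspa1a, Hspb1, Hspb8 and Dnaja1. The opposite pair, TTCNNGAA, was found for 6 members (10.3%, against 9.60%). Both pairs lie inside the longer run, so the counts overlap, and a match only says that these letters are present. The windows below show the elements of the genes just described, with the matched units and their spacers in capitals.
Hspe1, chr1:55088056-55088085, plus strand: ccgttctaGAACCTTCCGGAAggccccgcg
Hspd1, chr1:55088055-55088084, minus strand: gcggggccTTCCGGAAGGTTCtagaacgga
Hsph1, chr5:149636279-149636308, minus strand: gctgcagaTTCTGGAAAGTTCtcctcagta
Dnajb6, chr5:29735844-29735873, plus strand: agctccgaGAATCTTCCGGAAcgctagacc
Hspa1a, chr17:34972242-34972271, minus strand: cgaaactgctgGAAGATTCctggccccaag
Hspb1, chr5:135887811-135887840, plus strand: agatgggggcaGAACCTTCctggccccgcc
Dnaja1, chr4:40722333-40722362, plus strand: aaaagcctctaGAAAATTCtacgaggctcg
The windows of Hspe1 and Hspd1 are the same site read from either strand, since these genes start next to each other in opposite directions. Their readings nevertheless differed from those of Hsph1. Hspe1 was above the pool in every sample and the unsaturated probe of Hspd1, the HSP60 subunit, read -0.07, 0.02 and -0.23, while Hsph1 ranged from 0.38 in sample 1 to -1.17 in sample 3. Dnajb6, a J protein that keeps aggregation-prone proteins soluble, read 0.31, -0.05 and -0.04 on its brightest probe and 0.17, 0.12 and 0.04 on a second.

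The factors themselves differed in their order. Hsf1, the main heat shock factor, read 0.33, 0.25 and 0.28, a mean of 0.29 ± 0.04 (SD, n = 3; limma unadjusted p = 0.00929, adjusted p = 0.178), and was above the pool in all 3 samples. Hsf2 read 0.20, 0.28 and 0.08, and turned to -0.41 under median centring. Hsf4 read 0.13, -0.004 and -0.24, highest in sample 1 and lowest in sample 3. Bag3, a nucleotide exchange factor of HSP70 that is itself heat-inducible and partners Hspb8, read -0.05, -0.18 and -0.58, and its mean turned to 0.21 under median centring. It was lowest in sample 3, with an SD of 0.05 for the pool and 0.31 for the aortas.

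Of the remaining HSP70 genes, Hspa2 and Hspa1l, which are known from spermatogenic cells, read below the pool on average. Hspa2 read 0.08, -0.40 and -0.59, and its second probe 0.02, -0.38 and -0.54, and its mean turned to 0.05 under median centring. Hspa1l read -0.21, -0.32 and -0.32 (mean -0.29 ± 0.07; limma unadjusted p = 0.0114, adjusted p = 0.186). Hspa4, a constitutive HSP110 protein, had 4 probes that differed in sign: 0.31, 0.37 and 0.16 on 1 probe (limma unadjusted p = 0.0183) and -0.37, -0.25 and -0.17 on another (0.0202). Its brightest probe read -0.06, 0.18 and 0.18, so its direction is not settled by these data. Hspa12a, a distant HSP70 relative abundant in brain, read 0.80, 0.11 and 0.13 on its brightest probe and was highest in sample 1 on all 4 probes, while the means of these probes ran from -0.17 to 0.35. Hspa12b, its endothelial counterpart, read -0.14, -0.06 and -0.28, beside an endothelial marker median of 0.01, -0.05 and -0.20, and its mean turned to 0.26 under median centring. Hspa14, a ribosome-bound HSP70, read 0.13, 0.03 and 0.04.

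Hspb2, Hspb3 and Hspb7, small heat shock genes of muscle, had the largest mean differences among the unsaturated member probes. Hspb7, a cardiovascular small heat shock protein, read -0.67, -1.24 and -1.05, a mean of -0.99 ± 0.29 (SD, n = 3; limma unadjusted p = 0.00105, adjusted p = 0.0933), or 1.98-fold lower than the pool. Its probe is printed 10 times on each array, and the SD over these spots was 0.06 to 0.08. Its second probe read -0.44, -0.46 and -0.42 (limma unadjusted p = 0.00163, adjusted p = 0.111). All samples were below the pool on both probes, at different sizes. Hspb3, known from skeletal and cardiac muscle, read -0.23, -0.82 and -1.93, a mean of -0.99 ± 0.86 (limma adjusted p = 0.243), with sample 3 far below the others. Hspb2, which pairs with Hspb3 in muscle, read -0.33, -1.36 and -0.97 on its brightest probe, a mean of -0.89 ± 0.52 (limma adjusted p = 0.186), and 0.04, -0.25 and -0.55 on the other. Hspb6, or HSP20, a target of cyclic nucleotide kinases in relaxing smooth muscle, read -0.10, -0.64 and -1.05, a mean of -0.59 ± 0.48 (limma adjusted p = 0.235). For Hspb2, Hspb3, Hspb6 and Hspb7, all 3 samples were below the pool on the brightest probe, and the means stayed below 0 under median centring, at -0.49, -0.82, -0.30 and -0.63. The call of Hspb7 crossed the threshold under median centring (adjusted p = 0.0295) and without sample 1 (0.0467), and its adjusted p was 0.477 without sample 2.

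Over these 6 muscle genes, Hspb1 and Hspb8 included, 4 were lower at a limma unadjusted p under 0.05 and 5 were lower in every sample, with medians of -0.16, -0.73 and -1.01. At that p, 10.0% of all features were lower, and 19.6% of all kept probes were lower in every sample. Muscle markers were below the pool as well. Of 10 smooth muscle markers, 9 were lower at an unadjusted p under 0.05 and 2 at an adjusted p under 0.05. Those 2, Acta2 and Tagln, had saturated spots. The 7 unsaturated markers had medians of -0.36, -1.13 and -1.08, and 6 of them were lower at an unadjusted p under 0.05. The summed normalized intensity of all 10 was 298559 to 329412 for the pool and 154092, 109816 and 140318 for samples 1, 2 and 3. As 3 of the 10 had saturated spots, these sums are limited by saturation. All 12 skeletal muscle markers were lower in every sample, with a summed intensity of 378971 to 435493 for the pool and 237983, 223467 and 55593 for the samples. Saturated spots limit this sum too, for 3 of the 12. The 8 cardiac markers had medians of -1.87, 0.20 and -2.06. No marker in these lists was at 0, and 10 of 10 smooth muscle, 12 of 12 skeletal and 7 of 8 cardiac markers were well above background in the pool on all arrays. Sample 3, the lowest in skeletal markers, was also the lowest for Hspb3 and Hspb6. Sample 2, the lowest for the bright probes of Hspb2 and Hspb7, had the lowest median of unsaturated smooth muscle markers, by a small margin. Of these markers, Smtn, Des, Synpo2 and Pln were lowest in sample 3. Lists other than muscle were below the pool too. All 8 adventitial fibroblast markers were lower in every sample, with medians of -0.31, -0.86 and -0.44 over the unsaturated ones. All 5 measured red cell markers were lower in every sample, with unsaturated medians of -0.50, -1.19 and -0.91. By comparison, 9 of 10 lymphocyte markers were higher in every sample. The part of the muscle content, or of other cell types, in the Hspb values was not tested.

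**Figure D3:**
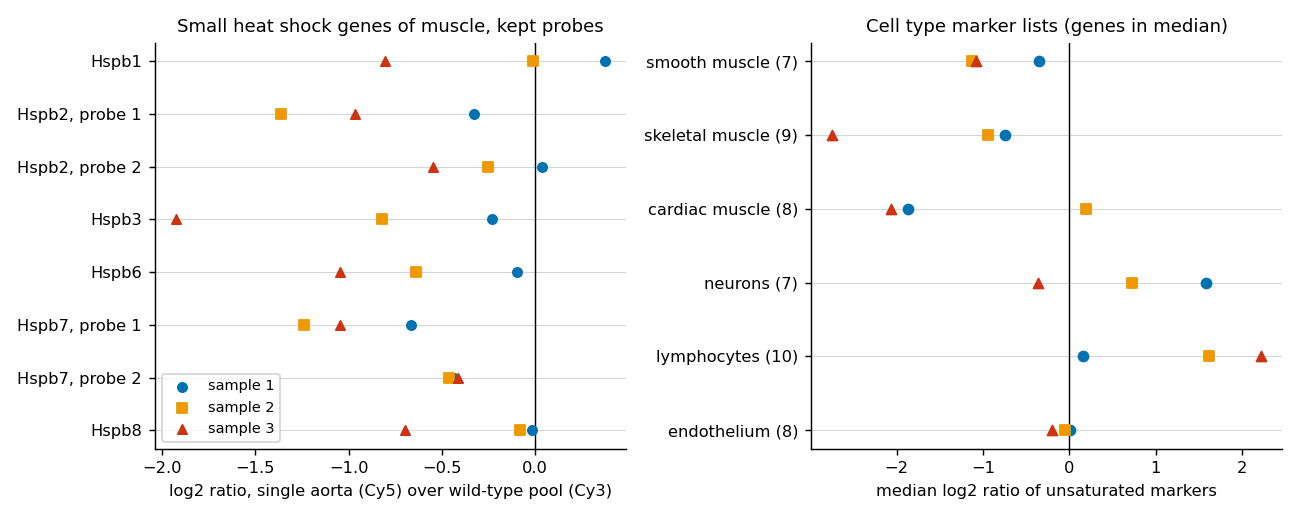
Left, log2 ratio of the single aorta over the wild-type pool (x axis) in each sample for kept probes of the muscle small heat shock genes. Right, the median log2 ratio of unsaturated markers of each cell type list, with the number of genes in brackets. Hspb2, Hspb3, Hspb6 and Hspb7 lie left of 0 on their brightest probes, and so do the smooth and skeletal muscle medians in all 3 samples.

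The probes behind the values of Hsph1, Hspb3 and Hspb7 are 60 bases long, and their first 30 bases show where each was read. Positions of probes are those of the array design in mm7 and cover the whole probe, and exon and UTR annotation of that build was not used here.
Hsph1, chr5:148550005-148550064, minus strand: gatcatgtgatcattgtgaacacctcgtga
Hspb3, chr13:110822039-110822098, minus strand: atgaaagccagggacaccccgggaatgctt
Hspb7, first probe, chr4:140802881-140802940, plus strand: ggcctaggtagactgcctcagggaagccag
Hspb7, second probe, chr4:140802440-140802499, plus strand: cggcgcaacccccacacagaacatgtccag
In 3 cases the chromosome in mm7 differs from that of the RefSeq gene: both probes of Hspa8, and a second probe of Hspb1 that the design puts on chromosome 13 while the gene lies on chromosome 5. That probe of Hspb1 read -0.15, 0.01 and 0.16, unlike the first.

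Among the other small heat shock genes, Hspb9, a testis gene, read -0.06, -0.03 and 0.09. Hspb11 read 0.30, 0.16 and 0.22 (mean 0.23 ± 0.07; limma unadjusted p = 0.0259, adjusted p = 0.220) and was the highest gene of its class. Of the binding partners, Hspbp1, a nucleotide exchange factor of HSP70, read 0.08, 0.14 and 0.10, and Hspbap1 read 0.05, -0.15 and -0.06.

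After loess the HSP90 genes differed little on average where a level could be read, with a mean of -0.19 for the unsaturated probe of Hsp90ab1. Under median centring the median of Hsp90 with Hsph was 0.29, and the mean of Hsp90b1 lay above the pool. Hsp90aa1, the inducible cytosolic HSP90, was saturated in Cy5 on 2 arrays, and the brighter probe of Hsp90ab1 on 1, so no fold is given for either. Hsp90b1, the endoplasmic reticulum HSP90 also called GRP94, read -0.04, -0.26 and 0.11 on 1 probe and 0.10, -0.26 and -0.34 on the other. Of 18 co-chaperones of HSP70 and HSP90, 0 passed the adjusted threshold, 4 were lower and 0 higher at a limma unadjusted p under 0.05, and 10 were lower in all 3 samples, with a median of -0.11. At that p, 10.0% of all features were lower and 9.59% higher, and 19.6% of all kept probes were lower in all 3 samples. Ptges3, the p23 protein that closes the HSP90 cycle, read -0.21, -0.27 and -0.28 (limma unadjusted p = 0.0144, adjusted p = 0.193), and turned to 0.21 under median centring. Cdc37, the kinase-loading partner of HSP90, was among the 4 lower co-chaperones, on a saturated probe.

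The mitochondrial chaperones gave 2 pictures, depending on the brightness of the probe. Hspa9, the mitochondrial HSP70, Hspd1 and Dnajc15, a J protein of the import motor, each have a probe with Cy5 saturated on all 3 arrays, where the aorta signal is only a lower bound and no fold can be given. Unsaturated second probes lay near 0, with -0.003, 0.11 and -0.19 for Hspa9 and the values above for Hspd1. Dnaja3, the mitochondrial partner of Hspa9, read 0.13, 0.24 and 0.19 on its brightest probe (mean 0.19 ± 0.06; limma unadjusted p = 0.0430, adjusted p = 0.253) and -0.22, 0.06 and -0.25 on the other, so its sign differs between probes. Dnajc19, another J protein of the import motor, read -0.13, -0.20 and 0.15, Dnajc30 read 0.11, 0.11 and 0.10, and Dnajc11, with 10 spots per array with an SD of 0.04 to 0.05 between them, read -0.05, -0.14 and -0.04. The 5 genes of this list whose brightest probe was unsaturated had medians of 0.11, 0.11 and 0.15.

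After loess the endoplasmic reticulum chaperones lay close to the pool. On the brightest probe of each of 7 genes, 0 passed a limma unadjusted p under 0.05 in either direction, and their medians were -0.02, -0.03 and 0.03. Hspa5, the reticulum HSP70 known as BiP, read 0.14, -0.03 and 0.13. Dnajb11 read -0.13, -0.20 and 0.03, and Dnajc3 read -0.02, 0.02 and -0.04, both being J proteins of the reticulum. Dnajb9, a J protein induced by the unfolded protein response, read -0.29, 0.23 and 0.24, and was lower in sample 1 than in the others on all 3 probes. Hspa13, a microsomal HSP70, read 0.11, -0.03 and -0.02. Under median centring the mean ratios of Hsp90b1, Dnajb11 and Dnajc3 turned to 0.43, 0.36 and 0.42 and that of Hspa5 went from 0.08 to 0.57 (limma adjusted p = 0.0222). Of 19 genes of the unfolded protein response (Dnajb9 among them), 4 were lower and 0 higher at an unadjusted p under 0.05, with a median of -0.01. At that p, 10.0% of all features were lower and 9.59% higher. Xbp1, the transcription factor of that response, read -0.26, -0.54 and -0.42 (limma unadjusted p = 0.00664, adjusted p = 0.169), and P4hb, protein disulfide isomerase, -0.33, -0.43 and -0.27 (0.00674 and 0.170), with means of -0.01 and 0.13 under median centring. After loess both genes were below the pool in all 3 samples.

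The element that marks this group of genes, CCAAT separated from CCACG by 9 bases and searched on both strands, was found in the windows of Hspa5, Hsp90b1 and Dnajc3, that is 5.17% of the members with a window and 0.137% of all genes. The windows are shown because these 3 genes, whose mean ratios lay near 0, share the element. The whole element, spacer included, is in capitals.
Hspa5, chr2:34772020-34772049, plus strand: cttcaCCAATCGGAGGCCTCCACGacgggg
Hsp90b1, chr10:86705632-86705661, minus strand: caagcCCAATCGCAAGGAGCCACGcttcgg
Dnajc3, chr14:118937822-118937851, plus strand: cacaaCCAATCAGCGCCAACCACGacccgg
Hsp90b1 has a second copy on the other strand closer to its start.

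Of 43 J-domain genes kept, 34 had a mean within 0.2 of the pool on their brightest probe after loess. The share of all features within 0.2 was not counted, so this closeness cannot be called particular to these genes. Over all kept probes the 5th to 95th percentile ran from -0.41 to 0.40. Under median centring the medians were 0.44 for Dnaja, 0.35 for Dnajb and 0.36 for Dnajc. Dnajb4, a J protein of heart and muscle, read -0.59, -0.39 and -0.39, a mean of -0.46 ± 0.12 (SD, n = 3; limma unadjusted p = 0.00305, adjusted p = 0.139), and -0.33, -0.33 and -0.43 on a second probe, while another read -0.13, -0.02 and -0.003. Dnajc1, a J protein of the reticulum membrane, read -0.33, -0.39 and -0.45, a mean of -0.39 ± 0.06 (limma unadjusted p = 0.00314, adjusted p = 0.139), and -0.47, -0.51 and -0.64 on a second probe (adjusted p = 0.0957). The means of both genes, taken from their brightest probes, turned to 0.02 and 0.05 under median centring, so their direction rests on the loess step. Dnajc25 read -0.38, -0.17 and -0.34 (limma unadjusted p = 0.0150, adjusted p = 0.195), and Dnajc21 read -0.17, -0.16 and -0.19. Dnaja4 read 0.03, -0.08 and -0.53, with a mean that turned to 0.13 under median centring, and its dimmer probe, not well above background in the pool on any array, read -0.27, -0.19 and -0.29. Dnaja2 read -0.02, 0.13 and 0.21, and Dnajc13, an endosomal J protein, read 0.15, 0.20 and 0.25 (limma unadjusted p = 0.0339, adjusted p = 0.236).

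Dnajb5, an HSP40 of heart and other muscle, had probes that differed in size though not in sign. It read -0.10, -0.22 and -0.25 on its brightest probe, -0.04, -0.28 and -0.22 on the next, and -0.61, -0.90 and -0.72 on the dimmest, whose mean of -0.74 ± 0.15 had a limma unadjusted p of 0.000607 and an adjusted p of 0.0736. The samples were all below the pool on each probe, and the mean of the brightest was -0.01 under median centring. The 3 probes lie within about a kilobase of each other, and their first bases are given in that order.
Dnajb5, first probe, chr4:42971411-42971470, plus strand: actcaccccatctcacgtggacccggctgg
Dnajb5, second probe, chr4:42971136-42971195, plus strand: tgtgtggctgcaccgtgaacattcccacca
Dnajb5, dimmest probe, chr4:42971940-42971999, plus strand: ttgagcacgagacacttttcatttggggca
Over all members, 40 genes had more than 1 kept probe. Their probes differed in the sign of the mean for 20 genes, and the median range between probes was 0.16. The same share over all genes was not counted, so 20 of 40 cannot be called particular to these members. Some of these means lay near 0, such as -0.0004 and 0.01 for Dnajc8. Of those 20 genes, Dnaja3, Dnajc10 and Hspa4 had a probe at a limma unadjusted p under 0.05.

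A few J-domain genes were higher in sample 1. Dnajc6, or auxilin, which uncoats clathrin vesicles in neurons, read 1.34, 0.70 and -0.002, a mean of 0.68 ± 0.67 (limma unadjusted p = 0.0580, adjusted p = 0.280), the highest mean of all members. Dnajc12, a J protein that assists the aromatic amino acid hydroxylases, read 0.91, 0.44 and 0.17, a mean of 0.51 ± 0.38 (limma unadjusted p = 0.0285, adjusted p = 0.225). Neuronal markers, tyrosine hydroxylase (Th) at 1.39, 0.73 and -0.42 among them, were highest in sample 1 and lowest in sample 3. Their part in these values was not tested. Probes within 0.2 of Dnajc6 in each sample were counted, for a likeness of patterns chosen after the values were seen. In all, 56 unsaturated probes qualified, among them Stmn1, Kif5c, Scg3, Fam89a and Aldoc. As these probes were taken by their values, neither the count nor the names test a link. Dnajc5, the vesicle J protein known as cysteine string protein, read -0.02, 0.02 and 0.14, unlike Dnajc6. The same count for Hspb3 gave 5 probes, with Tnni1, Smtnl1, Jsrp1 and Ldb3.

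Another 3 probes had a further pattern, low in sample 2 and high in sample 3. Dnajb8, a testis J protein that suppresses aggregation, read 0.32, -1.13 and 1.16, Dnajb3, another testis gene, read -0.09, -0.53 and 0.71, and 1 probe of Dnajc10, a reductase of the reticulum, read 0.28, -0.75 and 1.02. The SD of the pool was 0.04, 0.07 and 0.09 on these probes, against 1.17, 0.64 and 0.98 for the aortas. The other 3 probes of Dnajc10 read between -0.48 and 0.001, lowest in sample 2 as well but not above the pool in sample 3. Within 0.2 of Dnajb8 in each sample lay 55 other unsaturated probes, and 85 lay as near to this probe of Dnajc10, with names such as Ptprz1 and Syt6, or Trim68 and Nfya, against 4 for Hsph1. The first of the probes below holds the ordinary reading of Dnajc10 and the second the divergent one.
Dnajc10, first probe, chr2:80197188-80197247, plus strand: tatcacaacagtaagtgtaaaaatcctgta
Dnajc10, divergent probe, chr2:80161283-80162902, plus strand: ttagcactgaagttacatcctgataaaaac
Dnajb8, chr6:88298223-88298282, plus strand: tcaatggcaaggagaagctcatgagggtgg
Of the 9 genes known from germ cells, 8 were measured, with 1 lower and 0 higher at an unadjusted p under 0.05. At that p, 10.0% of all features were lower and 9.59% higher. Dnajb13, a radial spoke protein of cilia and sperm tails, read 0.29, 0.56 and -0.06 and had the highest mean of the Dnajb genes.

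**Figure D4:**
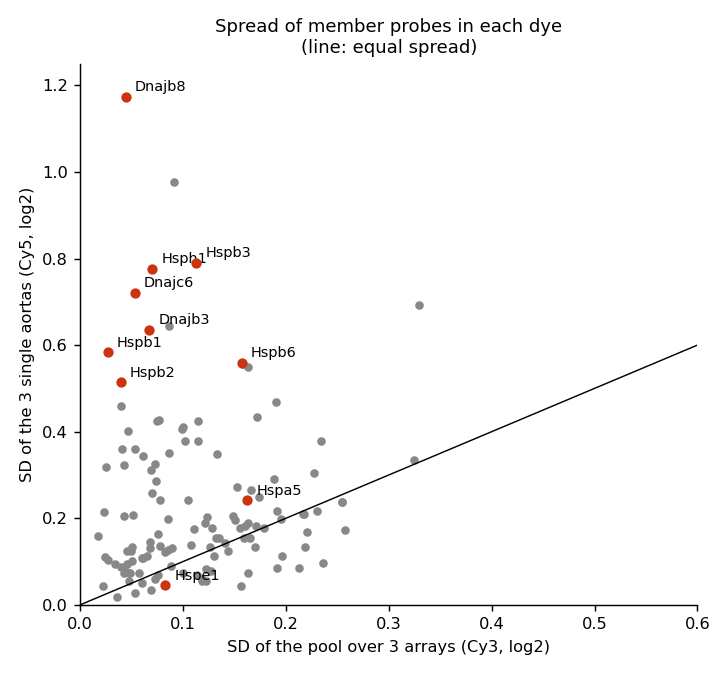
SD over the 3 arrays of each unsaturated member probe's log2 signal for the single aortas (Cy5, y axis) against that for the pool (Cy3, x axis), without the probe of Hspb1 placed on another chromosome; the line marks equal spread and named genes are in red. Dnajb8, Hsph1, Hspb3 and Dnajc6 lie far above the line, and Hspe1 lies below it.

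The spread between the aortas was set beside that of the pool for every member. The pool is the same RNA on each array, so its SD holds technical spread only. That of the aortas holds technical spread and any difference between the 3 tissue samples, whether of the animals or of the tissue taken. Over 135 member probes the SD of the aortas was above that of the pool for 96, against 72.4% of all kept probes. It was more than 3 times that of the pool for 38 (28.1%), against 27.3% of all kept probes. Both member counts are near the shares of all kept probes.

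The other partners of the chaperones are given by their counts. Of 10 nucleotide exchange factors of HSP70, 1 was lower and 0 were higher at a limma unadjusted p under 0.05. That gene, Sil1, the exchange factor of Hspa5, read -0.24, -0.20 and -0.19 (adjusted p = 0.224), and turned to 0.28 under median centring. Of 10 other chaperones, 2 were lower and 1 was higher. Serpinh1, the collagen chaperone HSP47, read -0.09, -0.63 and -0.74 (limma unadjusted p = 0.0267, adjusted p = 0.222) and had a mean of 0.01 under median centring, beside adventitial fibroblast markers with medians of -0.31, -0.86 and -0.44. Of 8 subunits of the cytosolic chaperonin, 2 were higher and 0 lower, Cct2 at 0.25, 0.25 and 0.32 (limma unadjusted p = 0.0107, adjusted p = 0.183) and Cct5 on a saturated probe. Of 13 immediate early genes, which respond to handling and stress of a tissue, 1 was higher and 1 lower: Junb read 0.63, 0.44 and 0.50 (limma unadjusted p = 0.00138, adjusted p = 0.102) and Egr1 -0.06, -0.53 and -0.78. Over all 7 such lists, 80 genes were counted, 0 passed the adjusted threshold and 17 had an unadjusted p under 0.05, beside 9.59% of all features higher and 10.0% lower at that p.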

How the data were processed

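RNA of 3 aortas labelled Plk1(+/-) was measured, each against 1 pool. The deposited intensity values, mean spot signals with no correction or scaling, were read with version 9.5.3.1 of Agilent Feature Extraction, per the file headers. The log ratio in these files is the log10 of processed Cy5 over processed Cy3 signal, per the file headers. The authors' series values are log2 for 28817 probes, with slopes of 0.997, 0.999 and 0.998 on that ratio and column medians of -0.02, -0.0052 and -0.03; their scale and direction are thus known, while the centring is not given in the sources used here.

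Signals were corrected with normexp (offset 50) and loess within arrays, giving control spots weight 0 (R 4.3.3, limma 3.58.1, and version 1.17.8 of data.table). Control and outlier spots (100 to 136 per array) were left out and spots of 1 probe averaged. Probes were kept if 1 dye or both stood well above background on 2 or more arrays. For each of 32486 kept probes, limma's lmFit and eBayes gave a two-sided test of the ratio against 0, and p-values were adjusted by Benjamini-Hochberg over these probes. Single-channel SDs and sums of normalized intensity follow Aquantile scaling. Per the labels the samples are biological replicates.

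Names came from the accession for 110 member probes, from a current symbol for 26 and from a synonym for 6, with the RefSeq listing of GRCm38.p6. Members and lists were chosen with earlier results of these data known. Named genes are a fixed set of members, the 2 smallest unadjusted p-values and the extreme means of each class, up to 2 of each partner list, and members whose probes differ in sign with a probe at an unadjusted p under 0.05. A gene that the rule names is not reported here. Other members are named to complete their group, after their values were seen. The test was tried on simulated data. Alternatives covered background correction, scaling, filters, saturation, the variance model, the probe choice, each sample left out and the authors' values.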

Additional observations from a re-analysis of the deposited data

How the results depend on the processing

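No paired analysis was possible because the samples form 1 group and each ratio is already taken within an array. Median centring in place of loess called 13590 probes (9311 higher, 4279 lower), 58 of 135 member probes (49 higher, 9 lower) and 40 of 80 partner genes (39 higher, 1 lower), where loess called 215, 0 and 0. It gave class medians of 0.33 for Hspa, 0.29 for Hsp90 with Hsph, 0.25 for Hspd with Hspe, 0.44 for Dnaja, 0.35 for Dnajb, 0.36 for Dnajc, 0.26 for the binding partners and -0.09 for Hspb, and 13 genes with probes of different sign in place of 20. It turned Hspa12b to 0.26, Hsp90b1 to 0.43, Dnajb11 to 0.36, Dnajc3 to 0.42, Hsf2 to -0.41 and Sil1 to 0.28, each at an adjusted p under 0.05. The scanner software's log ratio called 100 probes and gave -0.050 for Dnajb and -0.059 for Dnajc. The authors' series values, an alternative chosen after seeing the data, gave the same medians for these classes and called 166 probes. With no filter on dim probes Dnajb stood at -0.033. Without saturated probes, limma called 0 probes and Hspd with Hspe stood at 0.10. An intensity trend called 2 member probes, Hspa9 (adjusted p = 0.0296) and Dnajc15 (0.0385), both saturated. Medians over all probes of a class were -0.092 for Hspd with Hspe, -0.049 for Dnajb and 0.0018 for Dnajc. With 1 sample left out, limma called 0 to 293 probes and 0 to 2 member probes (Hspa8, saturated, at 0.0484, and Hspb7 at 0.0467, both without sample 1), and the calls over all probes were 0 without sample 2 and without sample 3. The Dnajb median then ran from -0.053 to -0.027 and that of Dnajc from -0.015 to -0.0088. The cause of these changes was not tested. Of the alternative values of single named genes, 562 kept direction and side of the threshold, 18 came to pass it, 6 turned and passed it, and 28 changed sign without passing it. Saturated Cy5 spots and the dim probes of germ cell genes limit what can be read.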

Other observations

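The largest spread between the 3 aortas in the partner lists belonged to Fkbp5, a co-chaperone of HSP90 in steroid receptor complexes whose gene is induced by glucocorticoids. It was chosen after its values were seen. Its ratio was -1.70 in sample 1, 0.70 in sample 2 and 1.97 in sample 3, with an SD of 0.07 for the pool and 1.86 for the aortas (limma adjusted p = 0.830). The order of samples is the reverse of that of Hsph1. Fkbp4, the related co-chaperone, read -0.18, -0.32 and -0.58, and Stip1, which hands clients from HSP70 to HSP90, read 0.13, -0.02 and -0.33, both lowest in sample 3. Cryab, the alpha B-crystallin that belongs to the small heat shock proteins under another name, read 0.01, -0.50 and -0.95, with the order of Hspb6. Unc45b, the myosin chaperone of striated muscle, read -0.71, -0.27 and 0.02, an order opposite to that of Hspb3.

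Of the 10 lymphocyte markers, 8 were higher in the samples at a limma unadjusted p under 0.05, against 9.59% of all features.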
